A study of Mus musculus with 6 samples.

Results

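The proneural basic helix-loop-helix (bHLH) factors of the retina were described here in the embryonic eye of mice lacking Oa1. The set was 9 named genes, Atoh7, Neurog2, Neurod1, Neurod4, Neurod6, Ptf1a, Bhlhe22, Olig2 and Nhlh2, and it took in each probe set that the platform annotation gives to 1 of them, whatever its signal. The annotation names 18193 genes in all. It gave 12 probe sets for 8 of the 9 genes, out of 45037 probe sets that are not controls, and Bhlhe22 was not analysed here. Of the 12, 10 probe sets of 7 genes were bright enough to be tested, out of 27029 tested in all. The 2 probe sets left out were 1 of the 3 for Neurod4 and the only one for Neurod6.

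The study measured RNA from the posterior eye at embryonic day 15.5 on Affymetrix Mouse 430 2.0 arrays. There were 3 Oa1-/- arrays, from embryos of Oa1-/- dams, and 3 wild-type (WT) arrays, from embryos of WT dams. Each array held the pooled eyes of 6 embryos of 1 dam, with the anterior part cut away, so a replicate is a litter. Oa1, now named Gpr143, encodes a receptor of pigment cell organelles. The sources used here do not give the strain, how much of the gene was deleted, or the sex of the embryos.

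Proneural bHLH factors switch dividing retinal progenitors into neurons. They pair with E proteins, bind the short DNA motif called an E-box, and turn on neuronal genes and the Notch ligands that hold neighbouring cells back. Notch signalling in those neighbours raises Hes repressors, and Id proteins take E proteins away from proneural factors, so both oppose neuron formation. In the mouse retina Atoh7 makes progenitors competent to form ganglion cells, while Ptf1a directs horizontal and amacrine fates and the Neurod factors act in amacrine cells and photoreceptors.

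Atoh7 was the member on which the genotypes separated, and it was modestly higher in Oa1-/- eyes on both of its probe sets, by 11.7% on one and 24.1% on the other. No member passed the test over all probe sets, and neither did Gpr143, the deleted gene. The remaining 8 tested probe sets overlapped between the genotypes, and 6 of them had their lowest signal on WT replicate 1 and their highest on WT replicate 3. Over all tested probe sets, the groups did not overlap in the higher direction for 4.92% and in the lower direction for 5.31%. That order of the 2 WT arrays held for 5.96% of all.

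The promoters shown are those of Atoh7, because its groups did not overlap, and of Neurog2 and Neurod4, because their signals followed each other closely over the arrays. Each is the 250 bases before the gene's start in RefSeq (GRCm38.p6), read 5′ to 3′ on the gene's strand, with capitals marking E-boxes (CANNTG). The Atoh7 window is chr10:63099535-63099784 on the plus strand, that of Neurog2 is chr3:127632886-127633135 on the plus strand, before a start that lies within the annotated gene, and that of Neurod4 is chr10:130280255-130280504 on the minus strand, the first of 2 RefSeq starts.
Atoh7: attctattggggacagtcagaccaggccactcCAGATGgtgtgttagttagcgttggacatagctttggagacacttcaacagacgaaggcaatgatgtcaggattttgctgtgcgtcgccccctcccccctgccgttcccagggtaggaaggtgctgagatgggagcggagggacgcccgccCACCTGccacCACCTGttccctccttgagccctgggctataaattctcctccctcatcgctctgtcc
Neurog2: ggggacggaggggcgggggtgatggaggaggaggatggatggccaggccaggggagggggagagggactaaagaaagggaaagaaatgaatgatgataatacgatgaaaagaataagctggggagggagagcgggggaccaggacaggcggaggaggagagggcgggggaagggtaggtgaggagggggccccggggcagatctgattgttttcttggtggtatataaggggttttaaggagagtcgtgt
Neurod4: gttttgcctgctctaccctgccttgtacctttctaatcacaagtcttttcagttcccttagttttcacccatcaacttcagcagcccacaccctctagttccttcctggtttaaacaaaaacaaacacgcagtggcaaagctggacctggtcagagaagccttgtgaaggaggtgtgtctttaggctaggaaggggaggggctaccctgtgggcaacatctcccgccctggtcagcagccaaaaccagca
The Atoh7 window holds 3 E-boxes, CAGATG with its first base 218 bases before the start and 2 copies of CACCTG at 67 and 57 bases before it. The Neurog2 window and both Neurod4 windows hold 0. Promoter sequence was found for 8 of the 9 genes. Of the other 5, Neurod1 has 1 E-box, Neurod6 has 2, Nhlh2 has 2, and Ptf1a and Olig2 have 0. Over all 32841 promoter windows of this length, 66.2% hold at least 1 E-box and 12.2% hold 3 or more. The N-box, a motif bound by Hes repressors, was searched as CACNAG on both strands, which shares no full match with an E-box in these windows. It is in the Neurod4, Neurod6 and Nhlh2 windows and in 36.7% of all. A match is a description of these letters and was not tested as a binding site.

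Before the results, the arrays themselves were compared. The deletion was checked first, and Gpr143 (1420581_at) had a signal of 24.5 ± 16.9 in Oa1-/- and 251 ± 5.30 in WT (SD, n = 3 each), with the highest Oa1-/- array at 39.1 and the lowest WT array at 246. Of the 3 control probe sets for 18S ribosomal RNA, 2 did not overlap between the genotypes, and the one at the 5′ end read 11826, 5201 and 4828 in Oa1-/- and 2227, 4049 and 2237 in WT. WT replicate 3 stood apart, with 9.26 for the Y-linked gene Eif2s3y against 406 to 805 on the other 5 arrays and a Gapdh 3′ to 5′ signal ratio of 0.985 against 0.798 to 0.841. Oa1-/- replicate 1 had the lowest median signal, 93.6 against 108 to 129 on the other 5 arrays. Of 6 retina markers, the 4 genes with a probe set (Rax, Isl1, Otx2 and Crx) were well above the bacterial controls on all arrays and their summed signal was 12908 to 13988 in Oa1-/- and 11481 to 14303 in WT, while that of 5 lens genes was 87830 to 93066 in Oa1-/- and 73500 to 91779 in WT, so the RNA was not of retina alone. The summed marker ranges for pigment epithelium, mesenchyme, muscle, endothelium, macrophages, surface epithelium, red cells and the oligodendrocyte lineage overlapped between the genotypes too, and Rpe65, of mature pigment epithelium, lay near background on all arrays. The brightest genes weigh most in these sums, and single markers could differ though most overlapped. Twist1 of mesenchyme read 587 ± 13.9 in Oa1-/- and 801 ± 185 in WT (SD, n = 3 each), with no overlap. Over all tested probe sets the log2 change (Oa1-/- minus WT) was negative for 14 of 16 of mesenchyme and positive for 8 of 8 of pigment epithelium. In pooled tissue, fewer cells of a type and less RNA per cell cannot be told apart.

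**Figure D1:**
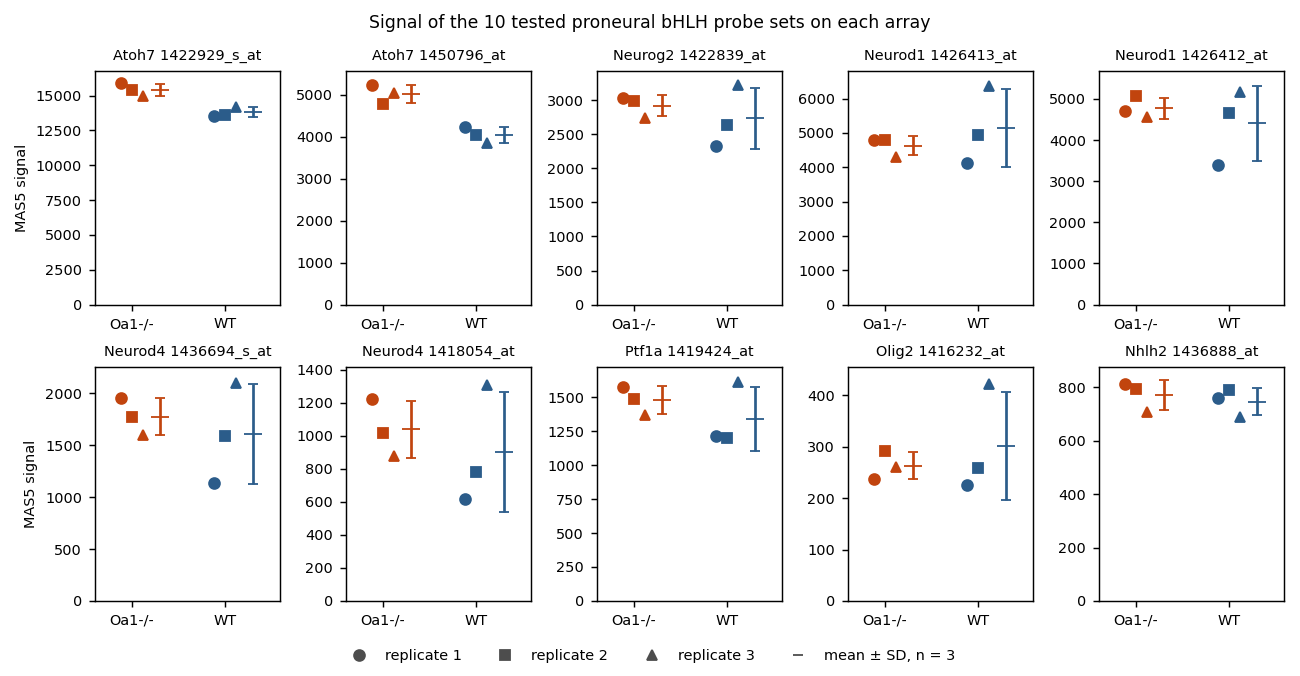
MAS5 signal (linear scale, arbitrary units) of the 10 tested probe sets on the 3 Oa1-/- arrays (left in each panel) and the 3 WT arrays (right), with the mean and SD of each group beside its points. The groups are apart in the 2 Atoh7 panels, and in most other panels the WT points lie further from each other than the Oa1-/- points do.

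Atoh7 lies on chromosome 10 from 63099785 to 63101280 (GRCm38.p6), and mouse mutants of it lack most retinal ganglion cells. Its probe set 1422929_s_at had signals of 15864, 15370 and 14987 in Oa1-/-, against 13532, 13627 and 14205 in WT. Its other probe set, 1450796_at, had signals of 5226, 4779 and 5030 in Oa1-/-, against 4221, 4044 and 3852 in WT. On both, each Oa1-/- array was above each WT array.

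The mean of 1422929_s_at was 15407 ± 440 in Oa1-/- and 13788 ± 364 in WT (SD, n = 3 each), a log2 change of 0.16 (SE 0.065, 95% interval 0.012 to 0.31). The mean of 1450796_at was 5012 ± 224 in Oa1-/- and 4039 ± 184 in WT (SD, n = 3 each), a log2 change of 0.31 (SE 0.074, 95% interval 0.14 to 0.48). Log2 changes here are Oa1-/- minus WT on log2(signal + 16), fitted with limma over all tested probe sets. The difference was larger than the spread within either genotype on both probe sets. The unadjusted limma p was 0.0371 for 1422929_s_at and 0.00280 for 1450796_at, which ranked 51 of 27029 by that p. After Benjamini-Hochberg adjustment over all probe sets the limma p was 0.985 for both, above the threshold of 0.05. In the same fit Gpr143, the deleted gene, had a log2 change of −2.82 and an adjusted limma p of 0.318. The adjusted test thus did not pick up the deleted gene either. The exact permutation test gave a two-sided p of 0.1 for each, the smallest that 3 arrays against 3 can give.

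The direction of both Atoh7 probe sets was the same in each of 16 alternative settings, with log2 changes from 0.11 to 0.19 for 1422929_s_at and from 0.25 to 0.34 for 1450796_at. The unadjusted limma p depended on the setting, and with median centring it was 0.346 for 1422929_s_at and 0.0786 for 1450796_at. Without the intensity trend it was 0.130 for 1422929_s_at and 0.0171 for 1450796_at. With 1 array left out it ran from 0.0265 to 0.116 for 1422929_s_at and from 0.00344 to 0.0122 for 1450796_at. Both read the same RNA on the same arrays, so they are not independent measurements, and over the 6 arrays they had a Pearson r of 0.85. The 18S control at the 5′ end was also higher on each Oa1-/- array than on each WT array, and its part in the Atoh7 difference was not tested. The ratio of the 3′ to the 5′ signal of beta-actin overlapped, at 1.30, 1.26 and 1.19 in Oa1-/- and 1.21, 1.29 and 1.34 in WT.

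The members' counts were read against those of all probe sets. In limma 0 of the 10 had an adjusted p below 0.05, as for 0.0% of all 27029, and the smallest adjusted p of any probe set was 0.278. With an unadjusted p below 0.05, 2 of the 10 were higher in Oa1-/-, both of Atoh7, where 1.64% of all probe sets were. None of the 10 was lower at that level, where 2.46% of all were. The groups did not overlap in the higher direction for the same 2 of 10, against 4.92% of all, and in the lower direction for 0 of 10, against 5.31% of all. A positive log2 change was seen on 8 of 10, against 47.4% of all. The median log2 change was 0.14 over the 10 and −0.010 over all probe sets tested. Several of the 10 read the same gene, and 6 followed 1 pattern over the arrays, so they are not 10 separate observations. When WT replicate 3 was left out, 6 of the 10 had an unadjusted limma p below 0.05, and when WT replicate 1 was left out, 1 of them had and the median log2 change was 0.012.

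**Figure D2:**
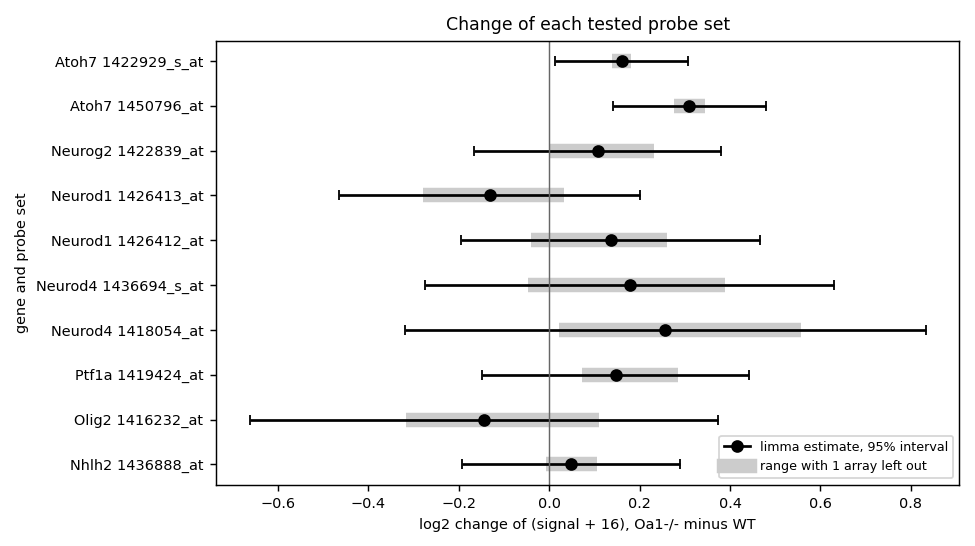
Log2 change (Oa1-/- minus WT, log2 of signal + 16, horizontal axis) of the 10 tested probe sets, with the limma estimate and 95% interval in black and the range of estimates with 1 array left out in grey. The 2 Atoh7 probe sets have intervals above 0 and the shortest of these intervals, and the grey ranges of 5 other probe sets reach to both sides of 0.

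Neurog2, on chromosome 3 from 127632733 to 127635636, acts in dividing progenitors at the front of retinal neuron formation, ahead of and beside Atoh7. Its probe set 1422839_at had signals of 3033, 2988 and 2743 in Oa1-/-, against 2335, 2637 and 3224 in WT. All 3 Oa1-/- arrays lay between WT replicates 2 and 3. The mean was 2921 ± 156 in Oa1-/- and 2732 ± 452 in WT (SD, n = 3 each), with a log2 change of 0.11 (SE 0.12). The adjusted limma p was 0.985 and the exact permutation p was 0.6, so the difference was within the spread between litters. Leaving out WT replicate 1 gave a log2 change of 0.0014, and leaving out WT replicate 3 gave one of 0.23.

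Neurod1, on chromosome 2 from 79452637 to 79456636, is needed for photoreceptor survival and takes part in the choice of amacrine fate. Its probe set 1426413_at had signals of 4795, 4804 and 4300 in Oa1-/-, against 4127, 4953 and 6372 in WT. Its probe set 1426412_at had signals of 4696, 5066 and 4569 in Oa1-/-, against 3399, 4659 and 5172 in WT. On both, the Oa1-/- arrays lay inside the range of the WT arrays, whose lowest was replicate 1 and highest replicate 3.

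The mean of 1426413_at was 4633 ± 288 in Oa1-/- and 5151 ± 1135 in WT (SD, n = 3 each), with a log2 change of −0.13 (SE 0.15). The mean of 1426412_at was 4777 ± 258 in Oa1-/- and 4410 ± 912 in WT (SD, n = 3 each), with a log2 change of 0.14 (SE 0.14). The adjusted limma p was 0.985 for each, and the exact permutation p was 0.7 for 1426413_at and 0.8 for 1426412_at. So the 2 probe sets of this gene pointed in opposite directions, each by less than its error, and their Pearson r over the 6 arrays was 0.70. Leaving out WT replicate 3 gave 0.033 for 1426413_at, and leaving out WT replicate 1 gave −0.040 for 1426412_at, a change of sign in both cases.

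Neurod4, on chromosome 10 from 130268152 to 130280254 and known in the mouse for its part in amacrine and bipolar cell formation, had 3 probe sets. Its tested set 1436694_s_at had signals of 1953, 1771 and 1599 in Oa1-/-, against 1139, 1591 and 2097 in WT. Its other tested set 1418054_at had signals of 1220, 1018 and 877 in Oa1-/-, against 617, 782 and 1310 in WT. The Oa1-/- arrays again fell inside the WT range on both. The WT arrays differed among themselves by 2.12-fold on 1418054_at, and the Oa1-/- arrays by 1.39-fold.

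On 1436694_s_at the Neurod4 mean was 1774 ± 177 in Oa1-/- and 1609 ± 479 in WT (SD, n = 3 each), with a log2 change of 0.18 (SE 0.20) and an exact permutation p of 0.6. On 1418054_at it was 1038 ± 172 in Oa1-/- and 903 ± 362 in WT (SD, n = 3 each), with a log2 change of 0.26 (SE 0.25) and an exact permutation p of 0.5. The adjusted limma p was 0.985 for each, and these errors leave room for a difference in either direction. The 2 probe sets had a Pearson r of 0.97 over the arrays. Leaving out WT replicate 1 gave a change of −0.047 on 1436694_s_at, and leaving out WT replicate 3 gave one of 0.39. On 1418054_at the same arrays gave 0.022 and 0.56, the second with an unadjusted limma p of 0.0125.

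The third Neurod4 probe set, 1418055_at, was too dim to be tested, at 33.8, 9.74 and 74.4 in Oa1-/- and 41.6, 44.0 and 55.3 in WT. It was above the highest bacterial control of its array on 5 of the 6 arrays. Neurod6, on chromosome 6 from 55677818 to 55681263, marks a class of amacrine cells in the mature mouse retina. Its only probe set, 1418047_at, read 0.216, 0.273 and 10.5 in Oa1-/- and 1.65, 0.214 and 1.26 in WT, below the highest bacterial control on all 6 arrays. Its signal was thus not above background in either genotype, and no difference can be read from it.

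Ptf1a, on chromosome 2 from 19445663 to 19447501, is needed for horizontal cells and most amacrine cells in the mouse. Its probe set 1419424_at had signals of 1574, 1484 and 1369 in Oa1-/-, against 1217, 1196 and 1614 in WT. The Oa1-/- arrays lay above WT replicates 1 and 2 and below WT replicate 3. The mean was 1476 ± 103 in Oa1-/- and 1342 ± 236 in WT (SD, n = 3 each), with a log2 change of 0.15 (SE 0.13), an adjusted limma p of 0.985 and an exact permutation p of 0.4. Leaving out WT replicate 2 gave a change of 0.072, and leaving out WT replicate 3 gave one of 0.29 (unadjusted limma p 0.0206).

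Olig2, on chromosome 16 from 91225550 to 91228677, is found in neurogenic progenitors of the retina that go on to cones and horizontal cells, and elsewhere in the oligodendrocyte lineage. Its probe set 1416232_at had signals of 238, 291 and 260 in Oa1-/-, against 227, 258 and 422 in WT. WT replicate 3 was far above the other 5 arrays, which all lay between 227 and 291. The mean was 263 ± 26.6 in Oa1-/- and 302 ± 105 in WT (SD, n = 3 each), with a log2 change of −0.14 (SE 0.23), an adjusted limma p of 0.985 and an exact permutation p of 0.9. Without WT replicate 3 the change was 0.11. Of the oligodendrocyte markers with a probe set, Sox10 read 187 ± 14.4 in Oa1-/- and 189 ± 42.8 in WT, and Mbp read 620 ± 46.5 in Oa1-/- and 630 ± 60.6 in WT (SD, n = 3 each). These are the brightest probe sets of the genes, and the other Mbp sets had means of 8.74 to 112 in Oa1-/- and 11.5 to 115 in WT.

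Nhlh2, on chromosome 3 from 102010111 to 102015492, is a helix-loop-helix factor of developing neurons. Its probe set 1436888_at had signals of 814, 793 and 709 in Oa1-/-, against 759, 789 and 690 in WT. Both groups spanned much the same range, and WT replicate 3 was the lowest array here, as it was on Atoh7 1450796_at and on no other tested member probe set. The mean was 772 ± 55.3 in Oa1-/- and 746 ± 51.1 in WT (SD, n = 3 each), with a log2 change of 0.048 (SE 0.11), an adjusted limma p of 0.989 and an exact permutation p of 0.5.

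The spread within WT was the other feature of the members. The SD on the log2 scale was larger in WT than in Oa1-/- for 8 of the 10 probe sets, against 49.2% of all tested. The median of that SD over the 10 was 0.0955 in Oa1-/- and 0.277 in WT, while over all tested probe sets it was 0.157 in Oa1-/- and 0.167 in WT. The WT litters thus differed more on the median member than on the median probe set, and the Oa1-/- litters less. Most members were bright, and 9 of the 10 also passed the alternative filter at the 70th percentile, which kept 13502 probe sets. Spread was not compared at matched signal, so the part of brightness in these medians was not tested. The smaller Oa1-/- median is therefore not shown to be particular to the members.

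The same WT arrays were at the ends for most members. WT replicate 1 had the lowest signal on 7 of 10 probe sets, against 19.4% of all, and WT replicate 3 the highest on 7 of 10, against 19.7% of all. Both held for 6 of 10, against 5.96% of all. These 6 were Neurog2, both Neurod1 sets, both tested Neurod4 sets and Olig2. The median deviation of the 10 probe sets from their own 6-array mean, on the log2 scale, was 0.12, 0.086 and −0.045 on the Oa1-/- arrays and −0.25, −0.094 and 0.20 on the WT arrays. Over all tested probe sets that median lay between −0.026 and 0.025 on each array. The pattern was not particular to the members. Among Notch pathway, Hes/Hey, neurogenic progenitor, ganglion and amacrine cell genes, some had both ends on these arrays on their brightest probe sets, and most did not. Those that had were Dll3, Mfng, Heyl, Sox4, Btg2, Pou4f1, Rbpms, Barhl2, Tfap2c and Slc32a1 of the tested genes. On its brightest probe set, each tested photoreceptor precursor, lens and pigment epithelium gene also had its lowest signal on WT replicate 1. Of these, Otx2, Crx, Thrb, Prdm1, Cryba1, Cryga and Pmel had their highest on WT replicate 3, and the others did not. Col1a1, Col1a2 and Col3a1 had both, while the mesenchyme markers Pdgfra, Twist1 and Prrx1 were highest on WT replicate 1. Signals of other kinds varied over the WT arrays as well. The summed surface epithelium markers lay between 3664 and 4872 in Oa1-/- and between 2952 and 7826 in WT, and the summed red cell markers between 6442 and 9140 in Oa1-/- and between 3393 and 20070 in WT. The red cell gene Hbb-y ran the other way from the members over WT, at 6006, 7654 and 8704 in Oa1-/- and 19360, 7799 and 2752 in WT. Hbb-y is the brightest of these markers and weighs most in the red cell sum. Hbb-bh1 also fell over WT, at 257, 77.3 and 41.3, while Alas2 did not, at 437, 595 and 580. Hba-a1 was too dim to be tested. Of the 4 retina markers, Crx, Otx2 and Isl1 rose from WT replicate 1 to WT replicate 3, and Rax did not. Crx read 961, 937 and 871 in Oa1-/- and 538, 775 and 1228 in WT, and Otx2 read 5220, 5735 and 4893 in Oa1-/- and 4323, 5166 and 5973 in WT, so both had the lowest signal on WT replicate 1 and the highest on WT replicate 3. Isl1 read 5956, 6050 and 6049 in Oa1-/- and 5474, 5616 and 5710 in WT. It was lowest on WT replicate 1, and its highest signal was on Oa1-/- replicate 2. Rax read 1210, 1266 and 1094 in Oa1-/- and 1147, 1092 and 1391 in WT. WT replicate 3 was also the array low in Eif2s3y. The part of tissue composition or of sex in this was not tested.

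**Figure D3:**
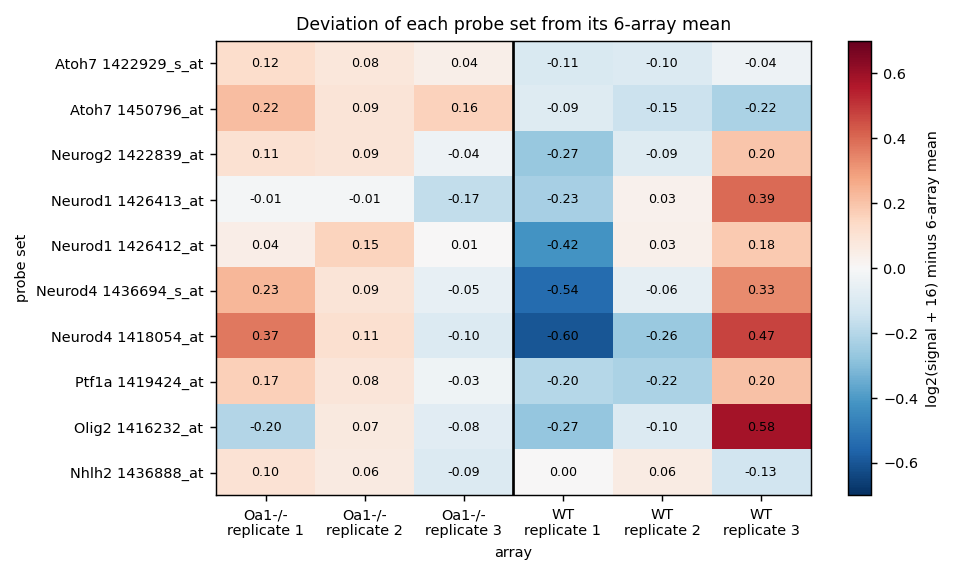
Deviation of log2(signal + 16) from the 6-array mean of each tested probe set (rows), on the 3 Oa1-/- arrays (left of the line) and the 3 WT arrays (right of it), with the value in each cell. The column of WT replicate 1 is below 0 on 9 of 10 probe sets, that of WT replicate 3 is above 0 on 7 of 10, and Atoh7 keeps positive values in Oa1-/- and negative values in WT.

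Most members followed each other over the arrays, while Atoh7 and Nhlh2 did so less. Over the 6 arrays, Neurog2 had a Pearson r of 0.98 with each tested Neurod4 probe set and 0.92 with Ptf1a. Neurod1 1426412_at had one of 0.90 with Neurog2, and 1426413_at one of 0.91 with Olig2. Atoh7 1422929_s_at had one of 0.62 with Neurog2 and 0.71 with Ptf1a. Atoh7 1450796_at had one of 0.13 with Neurog2, −0.53 with Neurod1 1426413_at and −0.51 with Olig2. Nhlh2 had one of −0.16 with Neurog2 and −0.64 with Olig2. Points here share arrays and RNA, and with 6 of them these values are descriptions only.

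For the 3 members with the brightest probe sets, the genes with the most similar signals over the 6 arrays were taken from 10433 other genes. For Atoh7 (1422929_s_at) these were Ddx39a, an RNA helicase gene, with a Pearson r of 0.989, Lratd1 with 0.984 and Timm10, a mitochondrial import chaperone gene, with 0.983. For Neurod1 (1426413_at) they were Nfyc, a subunit of a CCAAT-binding factor, with 0.992, Pex6 with 0.989 and Dbn1, which encodes the actin-binding protein drebrin, with 0.988. For Neurog2 (1422839_at) they were the proteasome gene Psmc3 with 0.995, Abcg1 with 0.992 and the chaperonin gene Cct3 with 0.991. With only 6 arrays many genes reach such values, and 107 had an r above 0.9 with Atoh7 and 222 with each of Neurod1 and Neurog2.

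The partners and opponents of the proneural factors were read from lists, 1 probe set per gene, the brightest. Over all 12885 genes tested this way, the log2 change was positive for 6545 and negative for 6340, the median was 0.00265, and 471 had an unadjusted limma p below 0.05. In each list that follows, 0 genes had an adjusted p below 0.05, so counts and medians are descriptions. Probe sets of 1 gene often disagreed, so counts over all tested probe sets of a list are given too.

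The 3 E proteins, which pair with the members, differed by probe set. On the brightest probe sets 1 change was positive and 2 were negative, each smaller than its error, with a median of −0.041. Tcf4 had a log2 change of −0.044, Tcf3 one of −0.041 and Tcf12 one of 0.013. Over all 13 tested probe sets of these genes, 2 changes were positive and 11 negative, with a median of −0.13. Of the 13, 3 had an unadjusted limma p below 0.05 with a negative change, where 2.46% of all tested probe sets did. In each of the 3 every Oa1-/- array was below every WT array, as for 5.31% of all. These were Tcf4 1416724_x_at, with a log2 change of −0.43 (p 0.0118), Tcf4 1424089_a_at, with −0.40 (p 0.00612), and Tcf12 1439619_at, with −0.76 (p 0.00572). Of the brightest probe sets, 2 changes were positive with Oa1-/- replicate 1 or WT replicate 1 left out.

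Of the other proneural and Olig-family genes, 9 had a probe set, and 3 were bright enough to be tested. Nhlh1, the close relative of Nhlh2, read 120, 162 and 160 in Oa1-/-, against 106, 107 and 103 in WT. Each Oa1-/- array was above each WT array, with a log2 change of 0.42 (SE 0.19) and an unadjusted limma p of 0.0561. The change was 0.24 for Neurod2, whose signal ran from 29.2 to 165 over the arrays, and −0.024 for Atoh8. The list's median was 0.24, with 2 positive changes, or 1 and a median of −0.076 without WT replicate 1. The 6 untested genes, Neurog1, Neurog3, Atoh1, Olig1, Olig3 and Bhlhe23, had means under 66.0, the filter on dim probe sets.

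The Id and Hes/Hey repressors had 8 tested genes, of which 7 had a positive log2 change, with a median of 0.12. Over all 15 tested probe sets, 12 were positive. Id1, which blocks E protein pairing, read 2891, 2450 and 2251 in Oa1-/-, against 2036, 2138 and 2102 in WT. The groups did not overlap, and the log2 change was 0.27 (SE 0.10) with an unadjusted limma p of 0.0304. Id4 had a change of 0.25 (unadjusted p 0.0820 in limma) and Hes1, the Notch target that keeps progenitors dividing, one of 0.12.

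The Notch pathway itself was evenly split, with 5 positive and 6 negative changes among 11 genes and a median of −0.010, and 10 positive and 9 negative over all 19 tested probe sets. Dll1, the ligand made by newly forming neurons, had a log2 change of 0.13, Notch2 one of −0.10 and Notch1 one of −0.071, and 0 of the 11 had an unadjusted limma p below 0.05. Without Oa1-/- replicate 3 the count of positive changes was 2.

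Genes that follow proneural factors in progenitors leaving the cell cycle had 8 positive changes of 8 on their brightest probe sets, with a median of 0.15 and 0 with an unadjusted limma p below 0.05. Over all 21 tested probe sets of these genes, 12 changes were positive and 9 negative, with a median of 0.018, so the count of 8 depended on the probe set taken. Insm1, a zinc finger factor of newborn neurons, read 1867, 1624 and 1675 in Oa1-/-, against 1307, 1454 and 1710 in WT, a log2 change of 0.21. Gadd45a had a change of 0.21 and Hes6, which counters Hes1, one of 0.15 on its brightest probe set. The other Hes6 probe set, 1452021_a_at, had a mean of 3332 ± 397 in Oa1-/- and 2579 ± 347 in WT (SD, n = 3 each) and did not overlap between the groups (log2 change 0.37, unadjusted limma p 0.0167). Below WT on every array were Sox4 1419157_at, with a change of −0.38 (unadjusted limma p 0.0475), and Sox11 1453125_at, with one of −0.27 (unadjusted limma p 0.0362). Sox4 and Sox11 are factors of newly formed neurons, with changes of 0.012 and 0.033 on their brightest probe sets. Without WT replicate 1 the list had 6 positive changes and a median of 0.032.

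Progenitor homeobox and cell cycle genes were split 5 to 5 with a median of 0.0053, and 9 to 6 over all 15 tested probe sets. Pax6, which sits above the proneural genes in retinal progenitors, read 11448, 11541 and 10597 in Oa1-/-, against 10026, 10063 and 10042 in WT on 1419271_at. The groups did not overlap, with a log2 change of 0.16 and an unadjusted limma p of 0.0477, while its other 3 tested probe sets overlapped, with changes of 0.14, 0.058 and −0.076. Ccnd1 had a change of 0.080 and Lhx2 one of 0.070. With WT replicate 2 left out 2 of the 10 changes were positive, and with WT replicate 3 left out 8 were.

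Ganglion cell genes, of the fate that depends on Atoh7, had 7 positive and 4 negative changes among 11 tested, with a median of 0.079, and 15 positive and 9 negative over all 24 tested probe sets. Gap43, a growth cone protein of extending axons, read 7650, 6366 and 6188 in Oa1-/-, against 5066, 5698 and 5923 in WT. The groups did not overlap, with a log2 change of 0.27 (SE 0.10) and an unadjusted limma p of 0.0283. Sncg, a synuclein abundant in ganglion cells, read 5819, 4843 and 5046 in Oa1-/-, against 3309, 4154 and 4852 in WT, with a change of 0.36 (SE 0.14), an unadjusted limma p of 0.0303 and an overlap between Oa1-/- replicate 2 and WT replicate 3. Eya2 had a change of −0.22. Ebf1 1448293_at, with a change of 0.26 (unadjusted limma p 0.0455), and Nefl 1454672_at, with one of 0.20 (unadjusted limma p 0.0472), were above WT on every Oa1-/- array, while the brightest probe sets of both genes had negative changes. Isl1, a homeobox factor of ganglion cells and one of the retina markers, read 5956, 6050 and 6049 in Oa1-/-, against 5474, 5616 and 5710 in WT on 1450723_at, with no overlap and a change of 0.10, while its other probe set overlapped. The part of ganglion cell number in the Atoh7 difference was not tested. Pou4f1, a ganglion cell transcription factor, read 1967 ± 63.9 in Oa1-/- and 1912 ± 607 in WT (SD, n = 3 each).

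Photoreceptor precursor genes had 7 positive changes among 7 tested on their brightest probe sets, with a median of 0.16 and 0 with an unadjusted limma p below 0.05. Over all 10 tested probe sets 9 were positive. The negative one was Rorb 1455799_at, whose signal was 2225 ± 61.5 in Oa1-/- and 2754 ± 365 in WT (SD, n = 3 each), with every Oa1-/- array below every WT array, a change of −0.30 and an unadjusted limma p of 0.0213. Rorb, a nuclear receptor of rod precursors, had a change of 0.066 on its brightest probe set. Rxrg, a nuclear receptor of cones, had a log2 change of 0.31, Nrl, the rod factor, one of 0.20 and Prdm1 one of 0.15. Without WT replicate 1, 2 of the 7 changes were positive and the median was −0.029.

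Amacrine and horizontal cell genes, of the fates that Ptf1a directs, had 3 positive and 7 negative changes among 10 tested, with a median of −0.12, and 5 positive and 14 negative over all 19 tested probe sets. The list median was between −0.29, without WT replicate 1, and −0.070, without Oa1-/- replicate 1. Ptf1a itself had a change of 0.15 (SE 0.13). The summed signal of the list was 6248 to 6940 in Oa1-/- and 7124 to 8104 in WT, with no overlap, while it overlapped for every other list. The sum was not tested and is 1 of many. With 3 arrays against 3, an exact two-sided permutation p cannot fall below 0.1, so the lack of overlap is a description. The brightest genes weigh most in this sum. Tfap2b had a mean of 1990 in Oa1-/- and 2318 in WT, and Foxn4 one of 1920 in Oa1-/- and 2065 in WT. Prox1, a homeobox factor of horizontal cells that is also made in lens and lymphatic vessels, read 386, 297 and 231 in Oa1-/-, against 506, 486 and 409 in WT. Its log2 change was −0.61 (SE 0.19, unadjusted limma p 0.0116), and its other probe sets had changes of −1.28 (1457432_at, unadjusted limma p 0.00198) and 0.15 (1421336_at), so they disagree. The dim set 1457432_at read 57.1 ± 19.5 in Oa1-/- and 162 ± 47.1 in WT (SD, n = 3 each). Its Oa1-/- mean was under the filter of 66.0, so it was tested only through its WT signal. Tfap2b, made in amacrine cells and in neural crest, had a change of −0.22 (unadjusted limma p 0.0256) on its brightest probe set and −0.53 on the other (1423340_at, unadjusted limma p 0.000558), and Tfap2a had one of −0.30. Mesenchyme markers, from neural crest, had 5 negative changes among 6, with a summed signal of 54133 to 55612 in Oa1-/- and 52220 to 64095 in WT, and their part in the Tfap2 values was not tested. Without both WT replicate 3 and Oa1-/- replicate 1, 5 of the 10 changes in the list were positive and the median was −0.028.

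**Figure D4:**
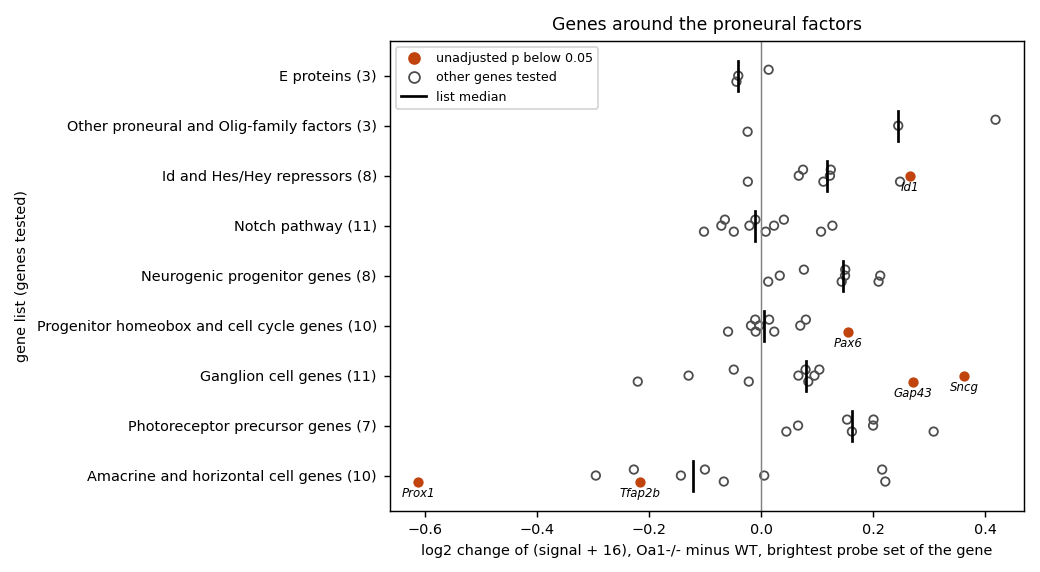
Log2 change (Oa1-/- minus WT, log2 of signal + 16, horizontal axis) of the genes around the proneural factors, 1 point per gene on its brightest probe set, in 9 lists with the number tested in brackets and the list median as a bar. Filled points have an unadjusted limma p below 0.05, and 0 genes in these lists have an adjusted p below 0.05.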

How the data were processed

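Gene expression was measured in 6 samples, 3 Oa1-/- and 3 WT, each a litter pool, grouped by their titles. The label reaction started from 12.5 micrograms of total RNA. The deposited signal intensities come from MAS5, as the submitters' processing notes state, and no version of it was found in the labels. With the top and bottom 2% of probe sets trimmed, each array averaged 500.002, so the authors had scaled the deposited intensities to a common target. Detection calls were not used here, and the number of arrays limits the precision.

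Probe sets were named through the platform annotation. Of 45101 probe sets, 64 controls were left out, and those with a 6-array mean above the 40th percentile (a signal of 66.0) were tested. Values were taken as log2(signal + 16), with no further normalization, and fitted with limma 3.58.1 in R 4.3.3 by lmFit and eBayes with an intensity trend. Tests were two-sided, without a covariate, with Benjamini-Hochberg adjustment over all 27029 probe sets, and fold changes of dim probe sets are understated on this scale. Exact permutation tests of single probe sets used scipy 1.17.1. The code was tested on simulated data.

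The members and gene lists were chosen with earlier results of these data known. Named from each list were up to 3 genes with the smallest unadjusted p. Isl1, Pou4f1, Sox4, Sox11, Ebf1, Nefl, Rorb, Twist1 and the retina, oligodendrocyte and red cell markers were added after their values were seen. So were the genes named for their order over the WT arrays. Similar genes were sought among brightest probe sets with a mean signal of at least 200. Alternatives were pseudocounts of 1 and 64, no filter or the 70th percentile, quantile normalization, median centring, no intensity trend, array weights, a replicate block, the brightest probe set per gene, and arrays left out singly or as a pair. Counts of positive changes in lists with arrays left out were chosen after seeing the data.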

Additional observations from a re-analysis of the deposited data

How the results depend on the processing

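Both Atoh7 probe sets kept their direction under all 16 alternatives run on each, and their adjusted p stayed above the threshold, at 0.287 to 1.00 for 1422929_s_at and 0.181 to 1.00 for 1450796_at. The number of all probe sets past an adjusted p of 0.05 was 0 in limma, and 2 with median centring and 2 with array weights. Of the members, 2 probe sets had an unadjusted p below 0.05, against 0 with median centring, 1 without the intensity trend, 1 with the brightest probe set per gene, 4 without WT replicate 3 and Oa1-/- replicate 1 together, and 1 to 6 with 1 array left out. Same-numbered litters did not deviate together (r of −0.29, 0.16 and −0.23 over all tested probe sets), so no pairing by number was seen. With deviations taken within groups of 3 arrays, these values cannot exclude one. With the replicate block 1 member probe set had an unadjusted limma p below 0.05. The median change over the members ran from 0.012 to 0.25 with 1 array left out. Signs changed for Neurod1 1426413_at (−0.28 to 0.033 with 1 array left out, 0.0075 without both arrays), Neurod1 1426412_at (−0.040 to 0.26) and Neurod4 1436694_s_at (−0.047 to 0.39). They also changed for Olig2 (−0.32 to 0.11, 0.056 with array weights, 0.18 without both arrays) and Nhlh2 (−0.0065 to 0.11, −0.045 without both arrays). The cause was not tested. With 3 litters per genotype, no member's change, those of Atoh7 included, passed the adjusted test. That of the deleted gene, Gpr143, did not pass it either (adjusted limma p 0.318).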
